A study of Mus musculus with 16 samples.

Results

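The genes described here are 39 interferon-stimulated genes, a set whose transcription rises in most cell types when an interferon binds its receptor. They were measured in the left ventricle of male and female mice after transverse aortic constriction (TAC), in which a ligature narrows the aortic arch so that the ventricle pumps against a raised pressure, and after a sham operation. Members were the probe sets (groups of short probes for one transcript) to which the platform annotation gives exactly 1 symbol that is on the list. Of the 39 genes, 34 had such a probe set, out of 12393 genes on the array that did, and these 34 genes had 50 probe sets. For each gene the probe set with the highest mean over the 16 arrays was used. On it, 32 genes passed the filter on low signals and were tested, while Mx1 and Mx2, GTPases of the MX family, did not pass. Isg15 had no probe set of its own symbol, because the one that carries its name carries another symbol too, and Ddx58, Ifi44, Ifi27 and Xaf1 had none, so none of these 5 genes has a value here.

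All mice were C57BL/6J, aged 12 to 14 weeks, and total RNA was taken from the left ventricle 14 days after surgery. The groups were male TAC (replicates 1, 2, 4 and 5), male sham (1 to 4), female TAC (1, 2, 3 and 5) and female sham (1 to 4), with 4 arrays per group, each labelled as from 1 mouse. The RNA was that of whole ventricular tissue, so fewer cells of a type and less RNA per cell cannot be told apart in any value below. The tissue label was checked against 8 ventricular cardiomyocyte markers, whose summed signal was 207719 to 347979 on the 16 arrays, while 3 atrial markers summed to at most 2380. The atrial sum differed between the groups, with 763.8 to 2379.8 in male TAC and 304.2 to 409.4 in male shams. In females it was 338.4 to 2299 in TAC and 267 to 502.8 in shams. Quality measures moved with the groups. The signal of the 5′ probe set of 18S ribosomal RNA was 725.2, 742, 535.4 and 9148.6 in male TAC, 10611.5, 6417.4, 14471.1 and 11909.5 in male shams, 635.3 to 1699.2 in female TAC and 1707.8 to 7101.8 in female shams. For Gapdh, the 3′ signal divided by the 5′ signal gave 1.004 to 1.16 in male TAC and 0.837 to 0.921 in male shams, and 0.958 to 1.03 in female TAC and 0.785 to 0.918 in female shams. Male TAC 5 thus had an 18S signal within the range of the male shams, and its interferon-stimulated genes also stood apart from those of the other male TAC arrays, as described below. Running numbers in the sample titles go in blocks by group, so an order of handling, if they record one, cannot be told apart from the groups.

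Interferons fall into branches that signal through different receptors. Type I interferons, made by many cells after viral nucleic acid is sensed, act through a complex that holds STAT2 and IRF9, binds the interferon-stimulated response element (ISRE) and induces the IFIT, OAS and MX genes. Type II interferon, interferon-gamma, is made mainly by lymphocytes and acts through the gamma-activated site (GAS). Its preferred targets include the guanylate-binding proteins, the immunity-related GTPases, the immunoproteasome and IRF1. The branches overlap, since most of these genes respond to both in some degree, so members were assigned to the branch that induces them more strongly: 24 of the tested genes lean to type I and 8 to type II (Irf1, Gbp2, Gbp3, Igtp, Irgm1, Iigp1, Psmb8 and Psmb9).

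The promoter sequences of the members carry the elements of both branches. RefSeq windows of the assembly GRCm38.p6, from 250 bases before to 50 bases after the start site, matched 31 of the 39 members. The ISRE core GAAANNGAAA, searched on both strands, was found in 17 of these 31 members (54.8%), against 3.99% of all 27025 genes with windows. A gene was counted if any of its windows held a match. The GAS core TTCNNNGAA, which reads the same on both strands, was found in 10 of 31 (32.3%), against 9.55% of all genes. By branch, the ISRE core was present in 13 of 24 type I members with a window (54.2%) and in 4 of 7 type II members (57.1%). The GAS core was present in 7 of 24 (29.2%) and 3 of 7 (42.9%). Matches to both motifs overlapped in 2 members. A match is a description of letters and does not show that a factor binds there. Of the 13 genes higher in male than in female shams, 12 had a window (Usp18 had none), and 6 of these 12 (50%) held an ISRE core. That share is close to the 54.8% of all members, so the printed windows do not set the 13 genes apart. The windows below are those of these 6 genes. They are printed 5′ to 3′ in the gene's direction, with the ISRE cores in capitals, and adjacent copies run together.
Ifit1: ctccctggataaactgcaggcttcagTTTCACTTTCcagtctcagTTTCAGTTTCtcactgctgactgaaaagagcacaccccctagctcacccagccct
Ifit3: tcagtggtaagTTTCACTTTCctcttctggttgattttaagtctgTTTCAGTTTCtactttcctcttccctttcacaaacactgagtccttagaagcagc
Trim30a: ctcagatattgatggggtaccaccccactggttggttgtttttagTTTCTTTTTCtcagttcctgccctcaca
Trim34a: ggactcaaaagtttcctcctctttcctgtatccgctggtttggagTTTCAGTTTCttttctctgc
Bst2: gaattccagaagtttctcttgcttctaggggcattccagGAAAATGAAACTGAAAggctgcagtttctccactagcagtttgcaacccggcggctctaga
Ifitm3: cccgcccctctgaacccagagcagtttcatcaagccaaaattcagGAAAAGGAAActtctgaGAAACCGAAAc

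These windows lie at chr19:34640759-34640858 (plus strand) for Ifit1 and chr19:34583362-34583461 (plus) for Ifit3, at chr7:104446096-104446168 (minus) for Trim30a and chr7:104244422-104244486 (plus) for Trim34a, and at chr8:71537542-71537641 (minus) for Bst2 and chr7:141010715-141010787 (minus) for Ifitm3. In Ifit1 the core nearest the start site began at position -85 from it and in Ifit3 at -122, and each of these windows holds a further copy upstream. Trim30a had a further window, for another start site (chr7:104465144-104465443, minus), with an ISRE core at -36. The printed Trim30a window is the one whose core, at position 3, lay nearer its start site. For comparison, 3 type II-leaning members follow. Gbp2 (chr3:142620559-142620658, plus) and Irgm1 (chr11:48871391-48871489, minus) hold ISRE cores, in capitals, and Irf1 (chr11:53769879-53769977, plus) holds a GAS core at -90, in capitals, and no ISRE core in its window.
Gbp2: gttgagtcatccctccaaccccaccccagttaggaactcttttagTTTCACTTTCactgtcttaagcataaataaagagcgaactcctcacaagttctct
Irgm1: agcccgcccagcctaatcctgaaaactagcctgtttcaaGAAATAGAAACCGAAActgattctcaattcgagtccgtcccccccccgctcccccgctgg
Irf1: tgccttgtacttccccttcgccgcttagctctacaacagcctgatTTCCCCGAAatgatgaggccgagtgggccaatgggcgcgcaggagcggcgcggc

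Signals of most members were highest in the male shams. The highest of the 16 arrays was a male sham for 28 of the 32 tested genes, against 27.3% of all 13576 tested probe sets. The filter and the choice of probe set used the mean over all 16 arrays. High male shams could thus help a gene to be tested, so this count is not independent of that choice. Male sham 3 was highest for 14 genes, male sham 4 for 9 and male sham 1 for 5, whereas male sham 2 was highest for 0. The exceptions were Gbp2, Gbp3 and Psmb9, which peaked on male TAC 5, and Dhx58, an RNA sensor of the RIG-I family, which peaked on male TAC 4. In the comparison of male TAC with male shams, 15 of the 32 genes were lower and 0 higher in male TAC (limma, adjusted p below 0.05), while 9.77% of all probe sets were called lower and 8.07% higher. The median log2 fold change of the 32 genes was -0.89, and that of all tested probe sets -0.03. In females 0 of 32 genes passed in the comparison of TAC with shams, where 8.6% of all probe sets were called lower and 6.46% higher.

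**Figure D1:**
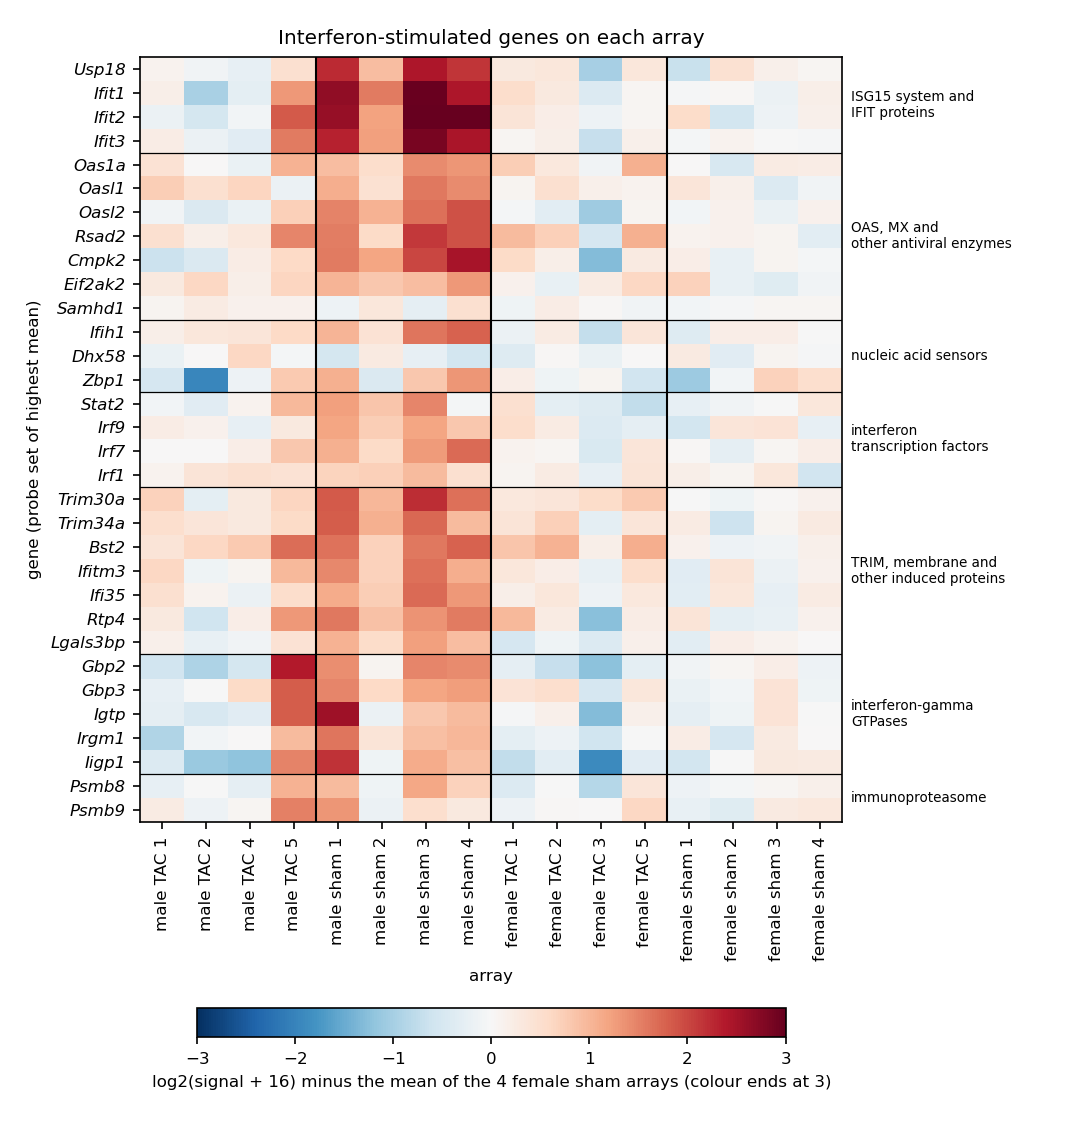
Log2(signal + 16) of the 32 tested interferon-stimulated genes (rows, grouped by role) on each of the 16 arrays (columns), drawn as the difference from the mean of the 4 female sham arrays. Red is higher and blue lower, and the colour ends at a difference of 3. Male shams 1, 3 and 4 are red in most rows and male sham 2 less so. Male TAC 5 is above 0 in 30 of the 32 rows, among them those of the interferon-gamma GTPases and of the IFIT genes.

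The ISG15 system and the IFIT proteins held the genes with the largest differences of the 32, Ifit1 for male TAC minus male sham and Ifit2 between the shams. Ifit1, whose protein binds viral RNA that lacks the host's cap methylation, had signals of 452.6, 193.8, 320.5 and 1005.2 in male TAC and 2610.9, 1201, 3223.1 and 2191.3 in male shams. Its signals were 580.3, 492.7, 293.6 and 417.1 in female TAC and 388.7, 409, 348.2 and 448.1 in female shams. Every male sham thus lay above every other array, and the lowest of them, male sham 2, lay above the highest of the rest, male TAC 5. Ifit1 was 5.1-fold lower in male TAC than in male shams (log2 fold change -2.35 ± 0.35, SE, adjusted p = 0.000102) and 5.3-fold higher in male than in female shams (log2 fold change 2.40 ± 0.35, adjusted p = 0.00234). In females its TAC difference was 0.12 ± 0.35 (adjusted p = 0.873). Here and below, a log2 fold change is a difference of group means of log2(signal + 16) with its standard error, 4 arrays stand in each group, and adjusted p values come from limma over all 13576 probe sets.

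Usp18, the protease that removes ISG15 from proteins and dampens type I receptor signalling, had 302.1, 258.6, 234.2 and 398.2 in male TAC and 1381.2, 551.4, 1567.1 and 1306.4 in male shams. In females it had 349, 357.9, 133.2 and 359.1 in TAC and 171.7, 389.4, 314.1 and 292.5 in shams. The male sham arrays again overlapped with no other group. The log2 fold change of Usp18 was -1.88 ± 0.33 for male TAC minus male sham (adjusted p = 0.000459) and 1.94 ± 0.33 for male sham minus female sham (adjusted p = 0.00775).

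Ifit3, which stabilises the IFIT1 complex, had 618.7, 465.9, 411.9 and 1591.5 in male TAC and 2664.8, 1251.1, 3880.6 and 2950.7 in male shams. Female TAC arrays had 546, 598.2, 317.4 and 586.4 and female shams 505.3, 569.8, 517.1 and 512.3. In males the groups overlapped, because male TAC 5 exceeded male sham 2. The differences were -1.89 ± 0.34 for male TAC minus male sham (adjusted p = 0.000642) and 2.21 ± 0.34 for male sham minus female sham (adjusted p = 0.00325). Ifit2 moved alike, at -2.29 ± 0.43 and 2.55 ± 0.43 in these comparisons (adjusted p = 0.000962 and 0.00781). All 4 tested genes of this role were lower in male TAC and all 4 were higher in male than in female shams. Of all probe sets, 9.77% were called lower and 0.214% higher in these comparisons.

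Of the 7 tested antiviral enzymes, Oasl2 and Cmpk2 were lower in male TAC, where 9.77% of all probe sets were called lower. Oasl2, a homologue of the oligoadenylate synthetases, which activate RNase L, had 359.2, 283.2, 335.8 and 652.3 in male TAC and 1125.7, 824.7, 1253.1 and 1513.3 in male shams. Female TAC arrays had 375, 307.4, 176.1 and 412.5 and female shams 369.9, 425, 339.2 and 430.6, so that the male shams stood above all other arrays. Its log2 fold change was -1.54 ± 0.25 for male TAC minus male sham (adjusted p = 0.000283) and 1.53 ± 0.25 for male sham minus female sham (adjusted p = 0.00739). Cmpk2, a mitochondrial nucleotide kinase whose gene neighbours Rsad2, had 182.8, 216.6, 347.8 and 454.8 in male TAC and 897.3, 688.2, 1244.8 and 1705.5 in male shams. In females it had 447.7, 337.7, 110.9 and 359.7 in TAC and 342.5, 250.5, 317.1 and 282.4 in shams. The male sham signals of Cmpk2 overlapped with no other group (log2 fold change -1.87 ± 0.35 for male TAC minus male sham, adjusted p = 0.000795, and 1.80 ± 0.35 for male sham minus female sham, adjusted p = 0.0192).

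The other 5 enzymes did not pass in either comparison. Rsad2 (viperin) was the brightest of them, with signals of 1818 to 4495.1 in male TAC, 2423.3 to 7109 in male shams, 1147.1 to 3401.1 in female TAC and 1297.4 to 1780.6 in female shams. Its difference was -0.93 ± 0.33 for male TAC minus male sham (adjusted p = 0.0593) and 1.53 ± 0.33 for male sham minus female sham (adjusted p = 0.0503), and both of its other probe sets were called lower in male TAC. Oas1a, Oasl1 and Eif2ak2, the kinase PKR, had differences of -0.73, -0.71 and -0.58 for male TAC minus male sham (adjusted p = 0.0699, 0.053 and 0.128). Samhd1, which hydrolyses deoxynucleotides, had 0.05 ± 0.16 in this comparison, but its 4 probe sets disagreed: one of the dimmer ones was called lower in male TAC and another had a difference above 0. Mx1 and Mx2, which the filter left out, had signals of 113.8 to 348.5 and 38.3 to 323.2 in male shams, against 18.2 to 57.3 and 17.5 to 52.5 in female shams. They had 7 to 150.4 and 13.3 to 57.1 in male TAC, and 48.4 to 115.3 and 17.8 to 28.8 in female TAC. Male shams thus overlapped with male TAC for both genes, and with female shams for Mx2.

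Among the 3 tested sensors of nucleic acid, 1 was lower in male TAC, where 9.77% of all probe sets were called lower. This was Ifih1 (MDA5, a receptor for long double-stranded RNA). It had 403.9, 456.6, 462.9 and 551.3 in male TAC and 742.5, 484.1, 1121.7 and 1260.1 in male shams, and 313.5, 426, 211.6 and 462.9 in female TAC and 269.3, 411.7, 414.3 and 351.6 in female shams. Male sham 2 lay among the male TAC arrays and the other 3 male shams lay above them (log2 fold change -0.84 ± 0.26, adjusted p = 0.0312). The difference of Ifih1 between male and female shams was 1.21 ± 0.26 (adjusted p = 0.0503), and the groups did not overlap. Zbp1, a sensor of Z-form nucleic acid, had 132.7, 37.7, 173.4 and 347 in male TAC and 419.8, 140, 349.6 and 505.7 in male shams. In females it had 222.8, 175.8, 204.4 and 124.7 in TAC and 81.8, 180.8, 319.4 and 280.8 in shams. All groups of Zbp1 overlapped, and its difference for male TAC minus male sham, -1.14 ± 0.49, did not pass (adjusted p = 0.116). Dhx58 had 0.36 ± 0.24 (adjusted p = 0.35).

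Of the 4 interferon transcription factors, Irf7 and Irf9 were lower in male TAC, where 9.77% of all probe sets were called lower. Irf7, the factor that amplifies type I interferon production, had 499.7, 498.8, 566.8 and 883.5 in male TAC and 1055.4, 737.8, 1230.7 and 1637.9 in male shams. Female TAC arrays had 532.9, 513.6, 353.2 and 637.1 and female shams 504.1, 406.6, 513 and 567.2. In males only male TAC 5 reached into the range of the shams (log2 fold change -0.90 ± 0.23, adjusted p = 0.00885), and male shams lay above all female shams (1.15 ± 0.23, adjusted p = 0.022). Irf9, the DNA-binding part of the ISRE complex, had 339.7, 315.6, 240.9 and 359.2 in male TAC and 672.4, 490.9, 678.5 and 519.3 in male shams. In females it had 423.7, 342.7, 213.3 and 235.5 in TAC and 191.4, 378.1, 392 and 242.6 in shams. The male groups of Irf9 did not overlap (-0.88 ± 0.24, adjusted p = 0.0146), and neither did male and female shams, although that difference did not pass (0.98 ± 0.24, adjusted p = 0.101). Stat2 had -0.71 ± 0.37 for male TAC minus male sham and Irf1 -0.35 ± 0.17 (adjusted p = 0.208 and 0.181).

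Among the 7 TRIM, membrane and other induced proteins, 5 were lower in male TAC and 6 were higher in male than in female shams. Of all probe sets, 9.77% were called lower and 0.214% higher in these comparisons. Trim30a, a mouse TRIM protein that restrains NF-kappaB signalling, had 722.9, 359.6, 542.9 and 696.7 in male TAC and 1632.4, 889.3, 2094 and 1411.3 in male shams. In females it had 550.9, 571.2, 652.8 and 772.6 in TAC and 435.4, 399.1, 453.2 and 481.8 in shams. The male shams lay above all other arrays (log2 fold change -1.34 ± 0.23 for male TAC minus male sham, adjusted p = 0.000327, and 1.67 ± 0.23 for male sham minus female sham, adjusted p = 0.00104). Its female TAC arrays also lay above all female shams, by 0.50 ± 0.23, which did not pass (adjusted p = 0.149). Lgals3bp, a secreted glycoprotein that binds galectins, had 900.3, 692.5, 751.3 and 1100.3 in male TAC and 1700.3, 1197.2, 1930.2 and 1547.8 in male shams. Female TAC arrays had 571.2, 742.7, 611.2 and 906.2 and female shams 646.9, 933.8, 878.6 and 817.8. All male shams of Lgals3bp exceeded all other arrays, by 0.94 ± 0.18 over female shams (adjusted p = 0.0195), and male TAC minus male sham was -0.88 ± 0.18 (adjusted p = 0.00194).

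Trim34a, Ifitm3, a membrane protein that blocks viral fusion, and Ifi35 were also lower in male TAC, by log2 fold changes of -0.96, -0.84 and -0.98 (adjusted p = 0.00714, 0.0152 and 0.00394). Ifitm3 was the brightest of the type I-leaning genes, with signals of 3683.1 to 7888.3 in male TAC and 6518.6 to 12753.2 in male shams. Bst2 (tetherin, which holds budding virions at the cell surface) differed between male and female shams (1.41 ± 0.27, adjusted p = 0.0165) but not past the threshold between male TAC and male shams (-0.55 ± 0.27, adjusted p = 0.169). In females Bst2 had 514.1, 599.4, 319.5 and 614.2 in TAC and 307.6, 250.4, 259.8 and 314.9 in shams, groups that did not overlap, and this difference had the lowest adjusted p of the 32 genes in females (0.78 ± 0.27, adjusted p = 0.0528). Rtp4, a chaperone of receptors, had -1.04 ± 0.37 for male TAC minus male sham (adjusted p = 0.0557).

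**Figure D2:**
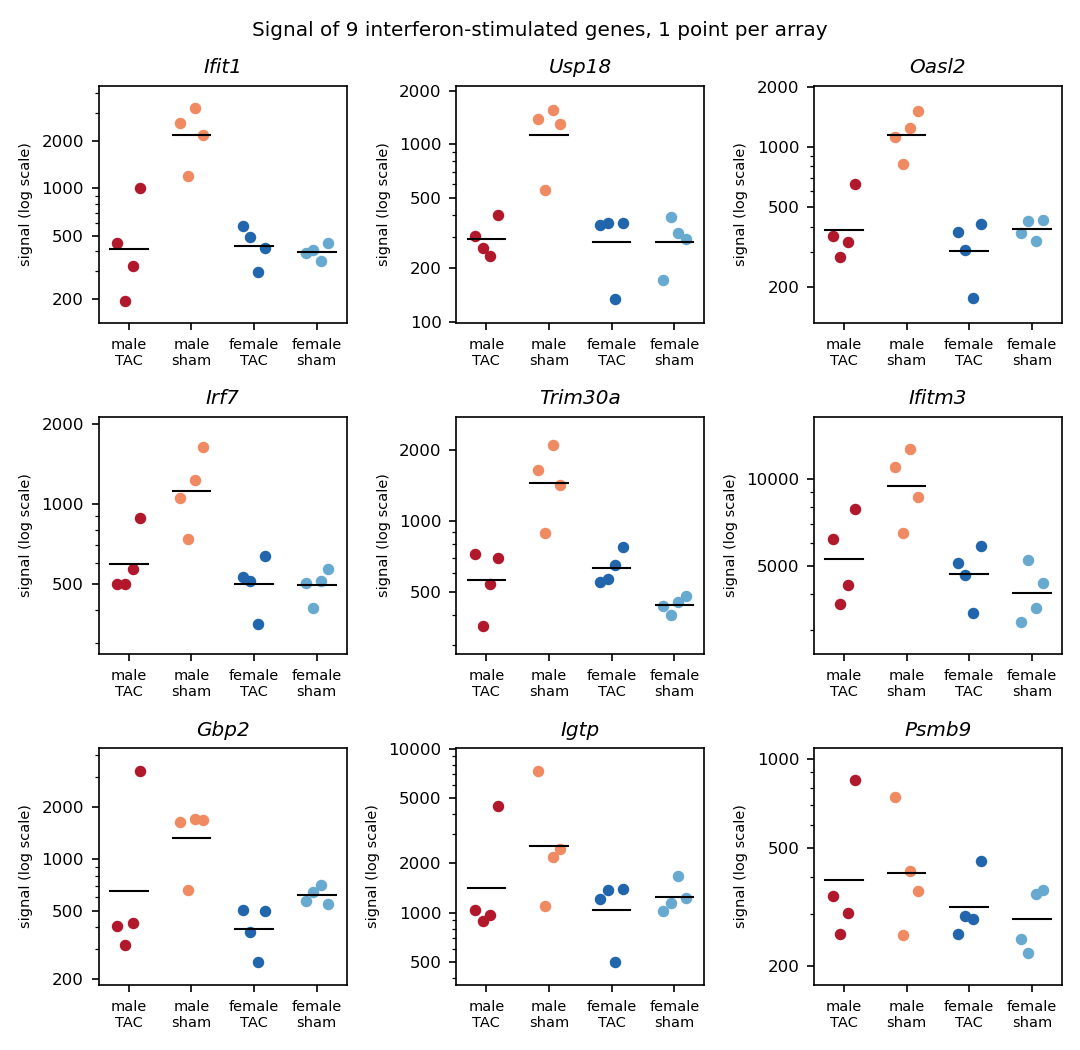
Signal on each array (points, log axis) of 9 interferon-stimulated genes in the 4 groups, with 4 arrays per group and lines at the mean of log2(signal + 16) turned back to a signal. In the plots of Ifit1, Usp18, Oasl2 and Trim30a the 4 male shams lie above all 12 other arrays, whereas Gbp2, Igtp and Psmb9 have a high point in male TAC as well, which is replicate 5.

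Of the 8 genes that lean to interferon-gamma, 1 was lower in male TAC (Irgm1), where 9.77% of all probe sets were called lower. Between male and female shams 0 of the 8 passed the threshold, where 0.214% of all probe sets were called higher. For 3 of the 8 the shams of the sexes did not overlap and the males were higher, against 3.5% of all probe sets. Irgm1, an immunity-related GTPase that regulates autophagy of intracellular pathogens, had 301.6, 549.4, 587.5 and 1130.6 in male TAC and 1791.5, 767.6, 1093.9 and 1179.8 in male shams. In females it had 467.1, 516.6, 377.1 and 575 in TAC and 679.7, 403.4, 705.6 and 582.3 in shams. The male groups overlapped through male TAC 5 (-0.98 ± 0.30, adjusted p = 0.026). Iigp1, a GTPase that attacks the vacuoles of parasites, had 2770, 1701.2, 1612.6 and 10394.9 in male TAC and 16738.5, 3414.7, 8045.8 and 6993.7 in male shams. Female TAC arrays had 2208.8, 2968.7, 984.2 and 2913.1 and female shams 2511.9, 3691.7, 4563.7 and 4495.9. Single arrays set the levels of Iigp1, with male TAC 5 and male sham 1 highest and male sham 2 within the range of the female shams (-1.33 ± 0.49 for male TAC minus male sham, adjusted p = 0.0689).

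Psmb8 and Psmb9 are catalytic subunits of the immunoproteasome, which cuts peptides for MHC class I. Psmb8 had 398.7, 472.1, 389.3 and 993 in male TAC and 927.6, 431.1, 1080.3 and 770 in male shams, and 349.4, 472.1, 251.9 and 616.7 in female TAC and 426.6, 450.6, 490.2 and 527.2 in female shams. Psmb9 had 345.9, 257.2, 303.3 and 848.2 in male TAC and 746.6, 256, 417.7 and 358.1 in male shams, and 257.9, 295.7, 289.2 and 452.4 in female TAC and 246.4, 222.1, 350.7 and 362.3 in female shams. Both had overlapping groups, with male TAC 5 the highest male TAC array, and neither differed past the threshold in males (-0.53 ± 0.30 and -0.08 ± 0.33, adjusted p = 0.245 and 0.909). Gbp2 and Igtp, described per array because their values stood out, showed the same array more strongly. Gbp2, a guanylate-binding protein of cell-autonomous defence, had 405.4, 314.8, 423.4 and 3243.5 in male TAC and 1636.4, 655.4, 1708.2 and 1677.7 in male shams. Igtp had 1037.6, 885, 973.4 and 4458.3 in male TAC and 7352.7, 1099, 2178 and 2432 in male shams. In females Gbp2 had 504.1, 374.3, 251.7 and 495.1 in TAC and 567.9, 641.4, 706.8 and 549.3 in shams, so that all TAC arrays lay below all shams, by a difference that did not pass (-0.62 ± 0.49, adjusted p = 0.444). For Gbp2 and Igtp in males, male TAC 5 was far above the other male TAC arrays and male sham 2 was the lowest male sham. Gbp3 had -0.59 ± 0.33 for male TAC minus male sham (adjusted p = 0.252).

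Single arrays held much of this variation. On male TAC 5 the median difference from the mean of the other male TAC arrays was 1.58 over the 8 type II genes and 0.76 over the 24 type I genes, and -0.04 over all tested probe sets. It was the highest male TAC array for 7 of 8 type II genes and 20 of 24 type I genes, against 21.9% of all probe sets. Male sham 2 was low among its group. Relative to the mean of the female shams its median was 0.73 over the type I genes and -0.01 over the type II genes, whereas the other male shams had 1.34, 1.60 and 1.50 over the type I genes and 1.42, 1.03 and 0.93 over the type II genes. Male sham 2 was the lowest male sham for 20 of 24 type I and 7 of 8 type II genes. Female TAC 3 had the lowest medians of all arrays, -0.34 over the type I genes and -0.73 over the type II genes. These medians describe arrays, and the difference between the branches was not tested.

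**Figure D3:**
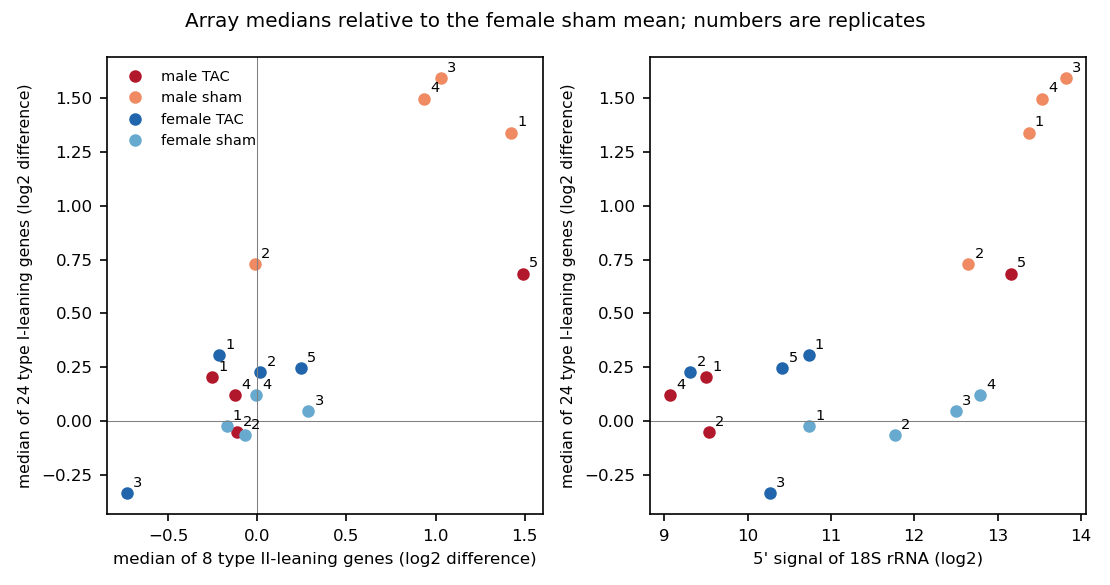
Median over 24 type I-leaning genes (vertical axes) against the median over 8 type II-leaning genes (left) and against the log2 signal of the 18S 5′ probe set (right), 1 point per array with its replicate number, colours for the 4 groups. Medians are log2 differences from the mean of the female shams. Male shams 1, 3 and 4 are high in both branches, male sham 2 only in type I (0.73 against -0.01), and male TAC 5 more in type II (1.49) than in type I (0.69).

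The comparison of the shams asked whether the sexes differed without pressure overload. Of the 32 genes, 13 were higher in male than in female shams and 0 lower, in a comparison where 0.214% of all probe sets were called higher and 0.0958% lower. All 13 lean to type I: Usp18, Ifit1, Ifit2, Ifit3, Oasl2, Cmpk2, Irf7, Trim30a, Trim34a, Bst2, Ifitm3, Ifi35 and Lgals3bp. The median log2 difference was 1.22 over the 24 type I genes and 0.996 over the 8 type II genes, of which 0 passed. The difference was nevertheless above 0 in all 8 type II genes and in 23 of the 24 type I genes, against 6828 of 13576 probe sets. Limma's unadjusted p was under 0.05 for 6 of the 8 and 21 of the 24, against 1424 of 13576 probe sets. Without overlap between the groups, 23 of the 32 genes were higher in male shams (20 type I and 3 type II), against 3.5% of all probe sets. Only 29 probe sets of the whole array were called higher in male shams. Of these 29, 14 (48.3%) belonged to the members, whose 41 probe sets made up 0.302% of all tested probe sets. Of the 13 probe sets called lower in male shams, 0 belonged to members. The members were chosen with earlier results of these data known. These counts and shares therefore describe the list and are not independent evidence about it.

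The same 4 male sham arrays serve in both comparisons. The 15 genes lower in male TAC and the 13 genes higher in male than in female shams shared 12 genes. In 11 of the 32 genes all male shams lay above all male TAC and all female sham arrays, against 1.07% of all probe sets. Between male TAC and female TAC, which uses none of the shams, 0 of 32 genes passed, where 0.00737% of all probe sets were called higher and 0.0589% lower. None of the 32 (0) had an unadjusted p under 0.05, against 6.44% of all probe sets. The median difference of male TAC minus female TAC was 0.23. The difference of the TAC responses, male minus female, passed for 0 of 32 genes and for 0 of all 13576 probe sets, a background of 0%, while 19 of the 32 genes had an unadjusted p under 0.05, against 6.61% of all probe sets. Its median over the 32 genes was -0.91, and the lowest adjusted p was that of Trim30a (log2 difference -1.84 ± 0.32, adjusted p = 0.0843). A difference of response between the sexes was therefore not established for any single gene. For TAC in females 2 of the 32 genes had an unadjusted p under 0.05, against 28% of all probe sets, and the median TAC difference was 0.02. Female TAC and female sham arrays did not overlap for Bst2 and Trim30a, higher in TAC, and for Gbp2, lower in TAC, while 8.29% of all probe sets were higher and 11.6% lower without overlap.

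**Figure D4:**
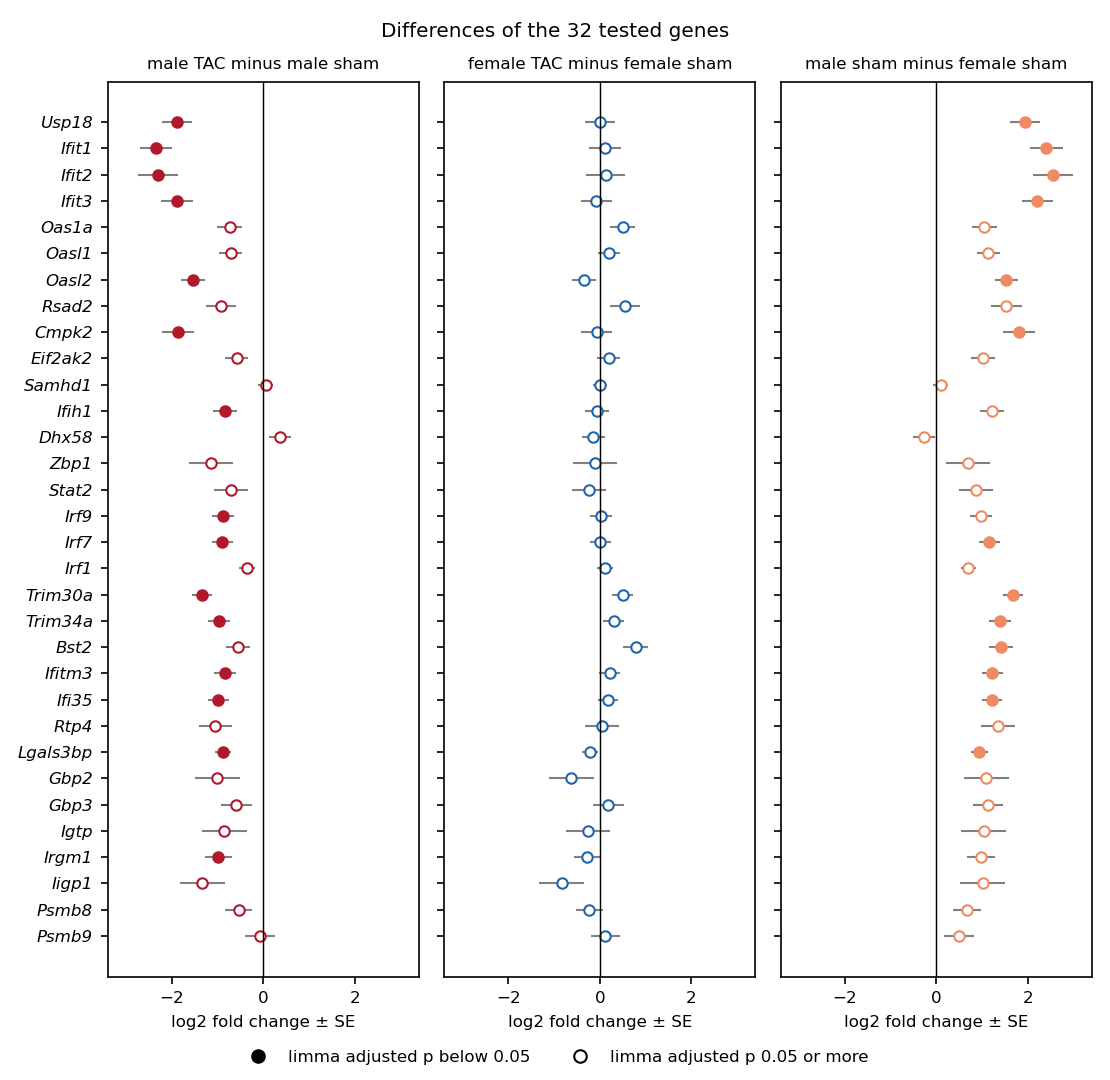
Log2 fold changes with standard errors (horizontal axes) of the 32 tested genes in 3 comparisons, filled where limma's adjusted p was below 0.05. Filled points number 15 for male TAC minus male sham, all below 0, then 0 for female TAC minus female sham, and 13 for male sham minus female sham, all above 0.

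These counts rest on particular arrays. The share of all probe sets called under each alternative is not given here. A change in the members alone can thus not be told apart from a change over the whole array. Without male TAC 5, 25 of the 32 genes were lower in male TAC, 19 of 24 type I and 6 of 8 type II genes, and without male sham 2 the count was 22. In the comparison of the shams, the count was 4 without male sham 3, 8 without male sham 4 and 9 without male sham 1, and 16 without male sham 2. With the 18S signal as a covariate, 1 gene was lower in male TAC (Oasl1), which was none of the 15, and 7 genes were higher in male than in female shams, 6 of them among the 13. With the Gapdh ratio as a covariate, 1 gene was lower in male TAC (Usp18) and all 13 were higher in male shams. For male TAC minus male sham the type I median was -0.71 with the Gapdh covariate, -0.48 with 18S and -0.91 without a covariate. The type II medians were -0.21, 0.40 and -0.72 in the same order. The Gapdh ratios of male TAC and male shams did not overlap, so that fit can hardly separate the ratio from the groups. Of the male TAC arrays only replicate 5 (9148.6) had an 18S signal within the range of the male shams. In males the 18S fit therefore leans on that array, and it too can hardly separate the signal from the groups. In 18S signal a single male sham, replicate 2 (6417.4), lay between female shams 3 and 4 (5780.4 and 7101.8). The type I median of male sham 2 was 0.73 against 0.04 and 0.12. Its type II median of -0.014 was not above those of the same female shams, 0.29 and -0.0058. The part of RNA quality in these results was not tested beyond these values.

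Genes upstream of these members were described from further lists. Of 21 interferon genes, 10 had a probe set and 2 passed the filter, and neither was called (Ifnb1 had signals of 93.5 to 191.8 in male TAC and 136.4 to 263.5 in male shams). Of 12 tested receptors and JAK-STAT components, 2 were higher and 2 lower in male TAC. Of all probe sets, 8.07% were called higher and 9.77% lower in that comparison. Jak1, a kinase of the receptors of both branches, was lower in male TAC (log2 fold change -1.09 ± 0.11, adjusted p = 2.43e-06) and in female TAC (-1.09 ± 0.11, adjusted p = 3.96e-06). Ifngr1, the ligand-binding chain of the interferon-gamma receptor, was higher in male TAC by 0.65 ± 0.17 and in female TAC by 0.94 ± 0.17 (adjusted p = 0.0116 and 0.000826). Of 12 tested genes that induce interferon, such as Tbk1 and Tlr4, 0 were called in the TAC comparison of either sex or between the shams.

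Other interferon-induced genes, not among the members, gave 9 lower and 1 higher of 27 tested in male TAC and 2 higher between the shams. Of all probe sets, 9.77% were called lower and 8.07% higher in male TAC, and 0.214% higher in male than in female shams. Lgals9, a galectin, had 758, 485.7, 555.8 and 712.4 in male TAC and 1354.2, 951.5, 2376.4 and 2120.7 in male shams. It was lower in male TAC (log2 fold change -1.35 ± 0.22, adjusted p = 0.000232) and higher in male than in female shams by 1.17 ± 0.22 (adjusted p = 0.0159). Ifitm2 moved the other way, with 0.51 ± 0.13 in males and 0.51 ± 0.13 in females (adjusted p = 0.00761 and 0.00937). Of 8 tested genes of MHC class I presentation, 2 were lower in male TAC, where 9.77% of all probe sets were called lower. These were Tap1 and Psme1, with log2 fold changes of -0.76 ± 0.24 and -0.50 ± 0.17 (adjusted p = 0.0348 and 0.0418). Of 6 tested MHC class II genes 0 were called. Cxcl9, a chemokine induced by interferon-gamma, had 244.2, 192, 147.1 and 1460.7 in male TAC and 350.2, 328.8, 507.2 and 523.9 in male shams, with male TAC 5 the highest of all arrays, as for Gbp2. This gene was picked out after its values were seen.

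Markers of cell types in the ventricle were summed on each array. The summed signal of 12 macrophage markers was 12217 to 13166 in male TAC and 7879 to 11186 in male shams, and 10014 to 15278 in female TAC and 7821 to 9283 in female shams, and 5 of 11 tested markers were higher in male TAC and 3 of 11 in female TAC, where 8.07% and 6.46% of all probe sets were called higher. Between male and female shams 0 of the 11 passed. Of the 8 ventricular cardiomyocyte markers, 5 were lower in male TAC and 7 in female TAC, where 9.77% and 8.6% of all probe sets were called lower, and 0 differed between the shams. Their summed signal was 238093 to 283837 in male TAC and 289764 to 347979 in male shams, and 207719 to 257869 in female TAC and 293845 to 314284 in female shams, with no overlap in either sex. For 15 lymphocyte markers, of which 4 passed the filter, the sum was 1770 to 2135 in male TAC and 1435 to 2281 in male shams, and 1560 to 2029 in female TAC and 1447 to 2354 in female shams, and 0 were called. For 5 markers of plasmacytoid dendritic cells, of which 1 passed the filter, the sum was 449.1 to 717.8 in male TAC, 447.5 to 644.2 in male shams, 248.5 to 611.4 in female TAC and 356.7 to 754.7 in female shams. On male TAC 5 the sums were 13166 for macrophages, 1846 for lymphocytes and 449.1 for plasmacytoid dendritic cells, the first above and the last below those of the other male TAC arrays. The next macrophage sum, on male TAC 1, was close, at 12978. The sum of 8 endothelial markers was 5685.4 on male TAC 5, the lowest of all arrays, and 6905.6 to 7900 on the other male TAC arrays. Of 7 neutrophil markers 2 passed the filter, and of these and of 8 tested endothelial markers 0 were called in the TAC comparison of either sex. None of these markers is listed at a signal of 0 on any array, a low signal does not tell an unexpressed gene from a weak one, and the part of these cell types in the results was not tested.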

How the data were processed

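Each value in the table that the authors deposited is a probe set's signal intensity on a linear scale, made with GCOS per the submitters' processing notes. Its settings are not given in the sources used here. The intensities were already scaled globally, as tested on the values: without the outer 2% at each end, the mean was 500.21 to 500.25 on all 16 arrays. That scaling was kept.

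Of 22690 probe sets, 64 controls were left out, and so were the 40% of lowest mean, which left 13576 (limit: a signal of 130.8). Log2(signal + 16) was fitted with limma 3.58.1 in R 4.3.3, with 4 group means over 16 arrays, empirical Bayes moderation that follows signal level (the intensity trend), and p-values, all 2-sided, were adjusted by Benjamini-Hochberg across all of them (threshold 0.05). "Lower", "higher" and "called" in counts refer to that threshold. The comparisons were TAC against sham in each sex, the difference of these responses, and male against female within shams and within TAC. The fit was tested on simulated data. The number of arrays limits the precision.

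Names came from the platform annotation: 20380 probe sets had 1 symbol, 691 several and 1555 none. Of the first, 20351 matched a RefSeq table of GRCm38.p6, and 0 symbols changed. The members, branches, roles and lists were chosen with earlier results of these data known. In each of 7 roles, values per array are given for the 2 genes with the smallest p for male TAC against male sham, and for up to 4 called genes with the smallest p in the other comparisons. Of each list up to 3 genes are named. Rsad2, Ifitm3, Bst2, Gbp2, Igtp, Mx1 and Mx2 were given values or ranges after these were seen. Replicate numbers did not pair the animals: same-numbered arrays correlated at -0.03 to 0.12 after the group means were removed. Alternatives were each array left out, the 18S signal or the Gapdh ratio as a covariate, the mean over a gene's probe sets, the replicate block, only the groups compared, array weights, the intensity trend switched off, a filter on the dimmest 60% or none, a pseudocount of 1 or 64, and arrays centred on the median or quantile-normalized.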

Additional observations from a re-analysis of the deposited data

Results flagged for a closer look

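In 132 tests of a gene or quality measure within 1 group of 4 arrays, 9 had an extreme array whose gap to its nearest neighbour, divided by the group's range of log2(signal + 16), exceeded Dixon's 95% critical value for 4 samples. Chance flags about 1 group in 20. On male TAC 5 this held for Gbp2 (a signal of 3243.5 against 423.4 on the next array, ratio 0.876), for Igtp (4458.3 against 1037.6, ratio 0.902) and for the 18S 5′ signal (9148.6 against 742, ratio 0.885). Male sham 2 was low for Gbp2 (655.4 against 1636.4, ratio 0.955). Female TAC 3 was low for 4 genes: Usp18 (133.2 against 349, ratio 0.97), Ifit3 (317.4 against 546, ratio 0.855), Gbp3 (202.6 against 374.8, ratio 0.836) and Igtp (497.6 against 1217.3, ratio 0.871). Female sham 4 was low for Rsad2 (1297.4 against 1711.7, ratio 0.875).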

How the results depend on the processing

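The count of 15 genes lower in male TAC was 13 to 21 under the other settings, apart from the 18S or the Gapdh covariate (1 gene each), and 12 to 25 with an array left out. The count of 13 genes higher in male than in female shams was 8 without the intensity trend, 7 with the 18S covariate, 13 to 17 under the other settings, and 4 to 17 with an array left out. For TAC in females, 0 genes were called, against 1 after quantile normalization, median centring, the filter on the dimmest 60% or array weights, 2 with only the groups compared or the 18S covariate, and 0 to 1 with an array left out. For the difference of responses, 0 became 1 with the filter on the dimmest 60% or the replicate block and 0 to 4 with an array left out (4 without male TAC 5). Male against female TAC gave 0 throughout. With the replicate block the counts were 21 for male TAC, 0 for female TAC, 16 for the shams and 0 between the TAC groups. The number only names a sample, so this is no sign of pairing. Shares of all probe sets called under these settings are not given, so the counts in this section stand without a background.

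Signs turned for male TAC minus sham with the 18S covariate in Oas1a (0.10), Samhd1 (-0.036), Zbp1 (0.36), Stat2 (0.081), Bst2 (0.12), Gbp2 (0.95), Gbp3 (0.46), Igtp (0.60), Iigp1 (0.35), Psmb8 (0.34) and Psmb9 (0.98), and with the Gapdh covariate in Samhd1 (-0.33), Stat2 (0.12) and Psmb9 (0.54). Samhd1 also turned with the mean over its probe sets (-0.36) and ranged over -0.073 (without male sham 3) to 0.18 (without male sham 4) with an array left out, and Psmb9 over -0.44 (without male TAC 5) to 0.20 (without male sham 1). Between the shams, Zbp1 turned with the 18S covariate (-0.00056) and Samhd1 ranged over -0.033 (without male sham 4) to 0.22 (without male sham 3). None of these values had been called. The causes were not tested.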

Other observations

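Among the probe sets called higher in male than in female shams, Parp14 and Lgals9, both induced by interferon, stood beside the 13 members. Parp14, picked out after its values were seen, had a log2 difference of 1.32 ± 0.24 (SE, n = 4 arrays per group, limma adjusted p = 0.0134), with signals of 1292.2, 1097.3, 1709.7 and 1426.7 in male shams and 633.1, 557.5, 494.9 and 470.8 in female shams. In male TAC its signals were 786.7, 559.7, 640.2 and 898.1, so the male shams lay above both groups.

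Dimmer probe sets of the members followed the brighter ones between the shams. Of 16 further probe sets of 12 members, 9 passed the filter, and 9 of 9 had the sign of the gene's main probe set for male sham minus female sham (1 called). For male TAC minus male sham 7 of 9 had the same sign (4 called). Of all probe sets, 0.214% were called higher in male than in female shams and 9.77% lower in male TAC.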
